A study of Danio rerio with 2 samples.

Results

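The genes described here encode ATP-driven pumps and their subunits in whole zebrafish brain. They were chosen by gene symbol alone, as every row of the deposited table whose symbol begins with atp1a, atp1b, atp2a to atp2c, atp4 or atp6 to atp13. This gave 61 of 27423 rows, or 60 of 27095 genes after rows with the same Entrez ID were summed, and no gene with a symbol of the atp2c, atp4 or atp12 type was among them. RNA sequencing was done on brain of wild-type male zebrafish and brain of wild-type female zebrafish, with 1 library per sex, each from the pooled brains of 5 fish. The sources used here give neither strain nor age.

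Ion pumps use ATP to move ions against their gradients. The Na/K pump, an alpha and a beta subunit together, keeps the sodium and potassium gradients on which every neuronal signal draws. SERCA pumps load calcium into the endoplasmic or sarcoplasmic reticulum, and PMCA pumps expel it through the plasma membrane. The V-ATPase, a rotary machine with a cytosolic V1 and a membrane V0 part, acidifies lysosomes and synaptic vesicles and so powers the filling of vesicles with transmitter. Copper pumps, the P4 flippases and the P5 pumps belong to the same P-type superfamily as the Na/K pump, but flippases carry phospholipids rather than ions, and the P5 pump Atp13a2 exports polyamines from lysosomes in mammals. The symbol rule therefore takes in more than ion pumps.

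Total depth was 62248792 estimated counts for male brain and 64300988 for female brain. Read counts are estimated counts, rounded, and a log2 ratio is of male over female after scaling to a common library size, so that a positive value is higher in the male library. CPM are scaled counts per 1000000 counts of the mean total of both libraries. A gene was called measured at a mean of at least 1 CPM over the libraries. It was called higher in a library where it was also at least 2-fold higher with an interval that excluded equality. The mean can be reached through 1 library alone, and a call is then apt to fall on that side. With 1 library per sex no spread between replicates can be estimated. No test was made, and each interval below is a 95% interval for counting error only.

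Markers of neurons were present in both libraries, with 9 of 10 matched and measured, none called and a median log2 ratio of 0.01, a sign that turned with library totals as the scale or with the expression trend taken out. Markers of other tissues, of photoreceptors and of the telencephalon were present at unequal levels. The 6 liver and oocyte markers were all higher in the female library (summed level 16.7 CPM in the male library, 1434 in the female library). Of these, vtg2, zp3 and zp2.2 reached the minimum of 1 CPM through the female library alone. Photoreceptor markers summed to 106 CPM in the male library against 37.1 in the female library, with 4 of 6 measured genes higher in the male library and pde6a listed at 0, and telencephalic markers summed to 236 CPM (male) and 91.0 CPM (female) with 6 of 6 higher in the male library.

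Most measured pump genes stood at nearly the same level in male and female brain, and the 2 that differed by 2-fold or more were a sodium pump gene, atp1a1a.4, and the muscle calcium pump gene atp2a1. Short of 2-fold, atp1a1a.2, atp1a2a and atp2a1l lay 1.66-fold, 1.53-fold and 1.48-fold higher in the male library. Of the 60 genes, 52 were measured, 1 lay below the minimum and 7 were listed at 0 in both libraries. Of the 52, 2 were higher in the male library (atp1a1a.4 and atp2a1), 0 in the female library and 50 in neither. The same rule called 1.06% of the 14756 measured genes of the table higher in the male library, 2.7% higher in the female library and 3.76% in either direction. The 3.85% of pump genes called lay near the share in either direction but above the male-side share, and rests on 2 genes. At a minimum of 5 CPM the same 2 of 50 pump genes were called. The shares over all genes were then 0.484% on the male side and 1.4% in either direction. At the minimum of 1 CPM there were 156 male-side and 399 female-side calls over all genes (28.1% male). With the trend of the ratio on expression level removed there were 203 male-side and 328 female-side calls (38.2% male). All 60 together took 1.35% of male reads and 1.34% of female reads.

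The median log2 ratio of the 52 measured pump genes was 0.05, against -0.00 over all measured genes of the table, and it turned to -0.02 once the dependence of the ratio on expression level was removed. Log2 ratios lay within 0.2 of 0 for 40 of 52 pump genes (76.9%) and for 64.7% of all measured genes. The pump genes had more reads than most, with a median of 201 CPM against 31.0 CPM over all measured genes, and so smaller counting error. The counting interval lay wholly above 0 for 29 pump genes, wholly below 0 for 13 and held 0 for 10. Over all measured genes the interval lay above 0 for 31.5%, below 0 for 30.8% and to either side for 62.4%. These intervals hold counting error alone, so an interval that excludes 0 does not show a difference between male and female fish. At a fold of 1.5 in place of 2, 4 pump genes were higher in the male library, as were 2.8% of all measured genes, with atp1a1a.2 and atp1a2a added. The sign of 15 of the 52 ratios turned under at least 1 other scaling or trend removal.

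**Figure D1:**
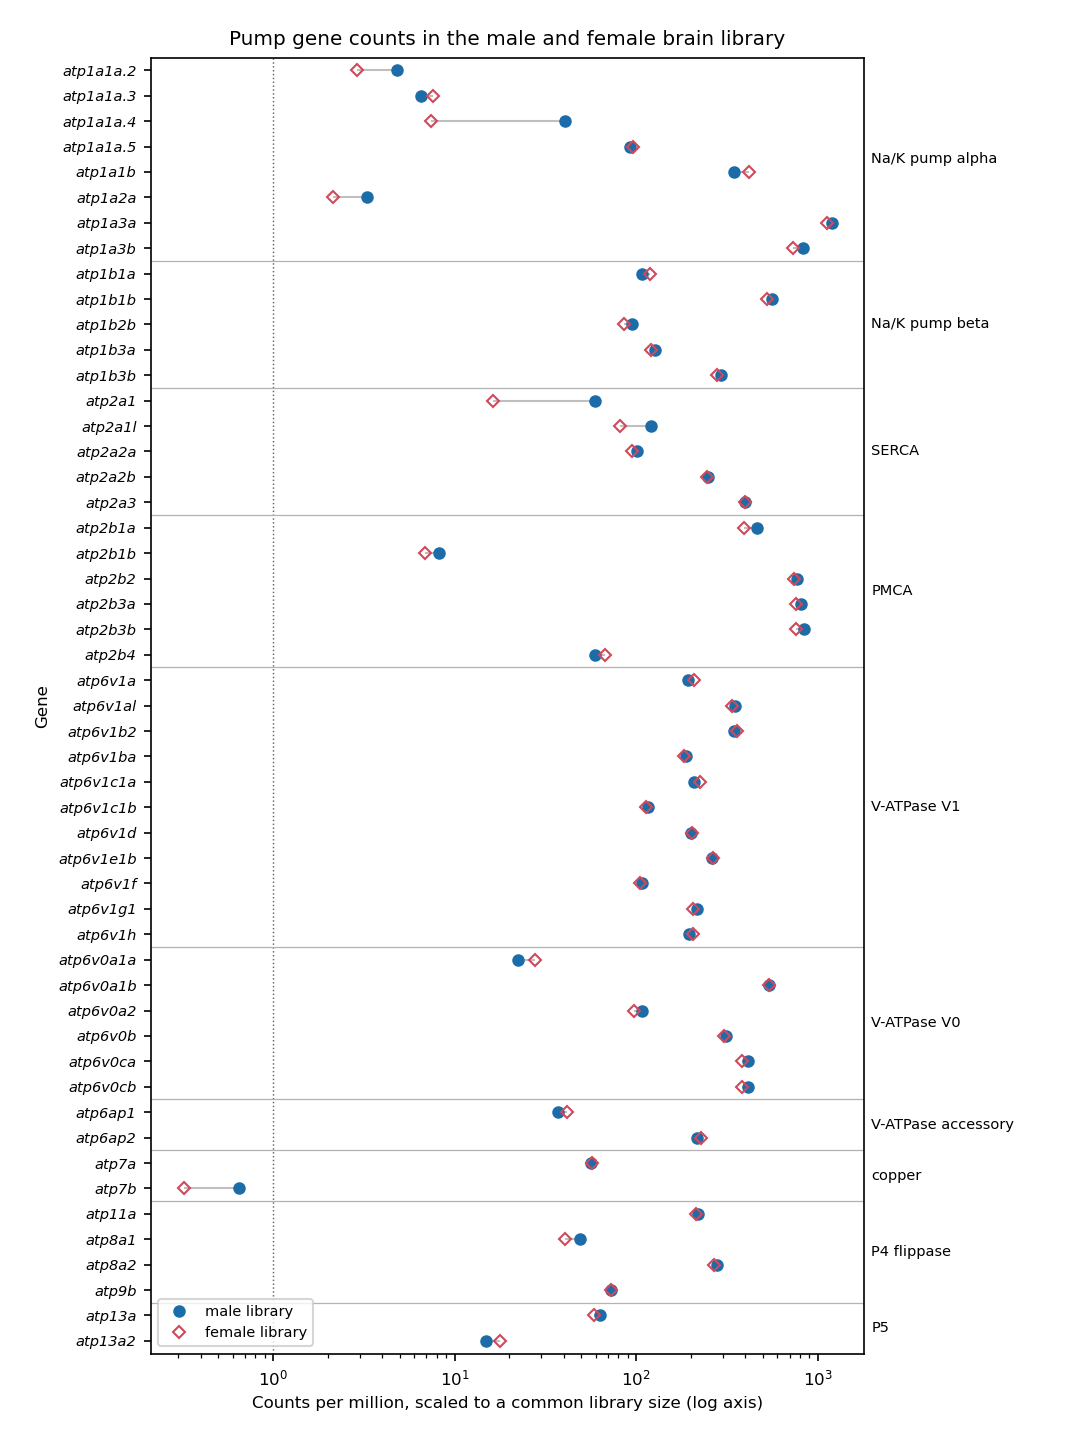
Level of 51 of the 53 pump genes with reads, grouped by class, in CPM on a log axis (filled circles, male library; open diamonds, female library; dotted line, the minimum of 1 CPM). Levels are not corrected for gene length, so they compare the libraries within a gene and not 1 gene with another; atp1a1a.4 and atp2a1 show the widest gaps among measured genes.

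**Figure D2:**
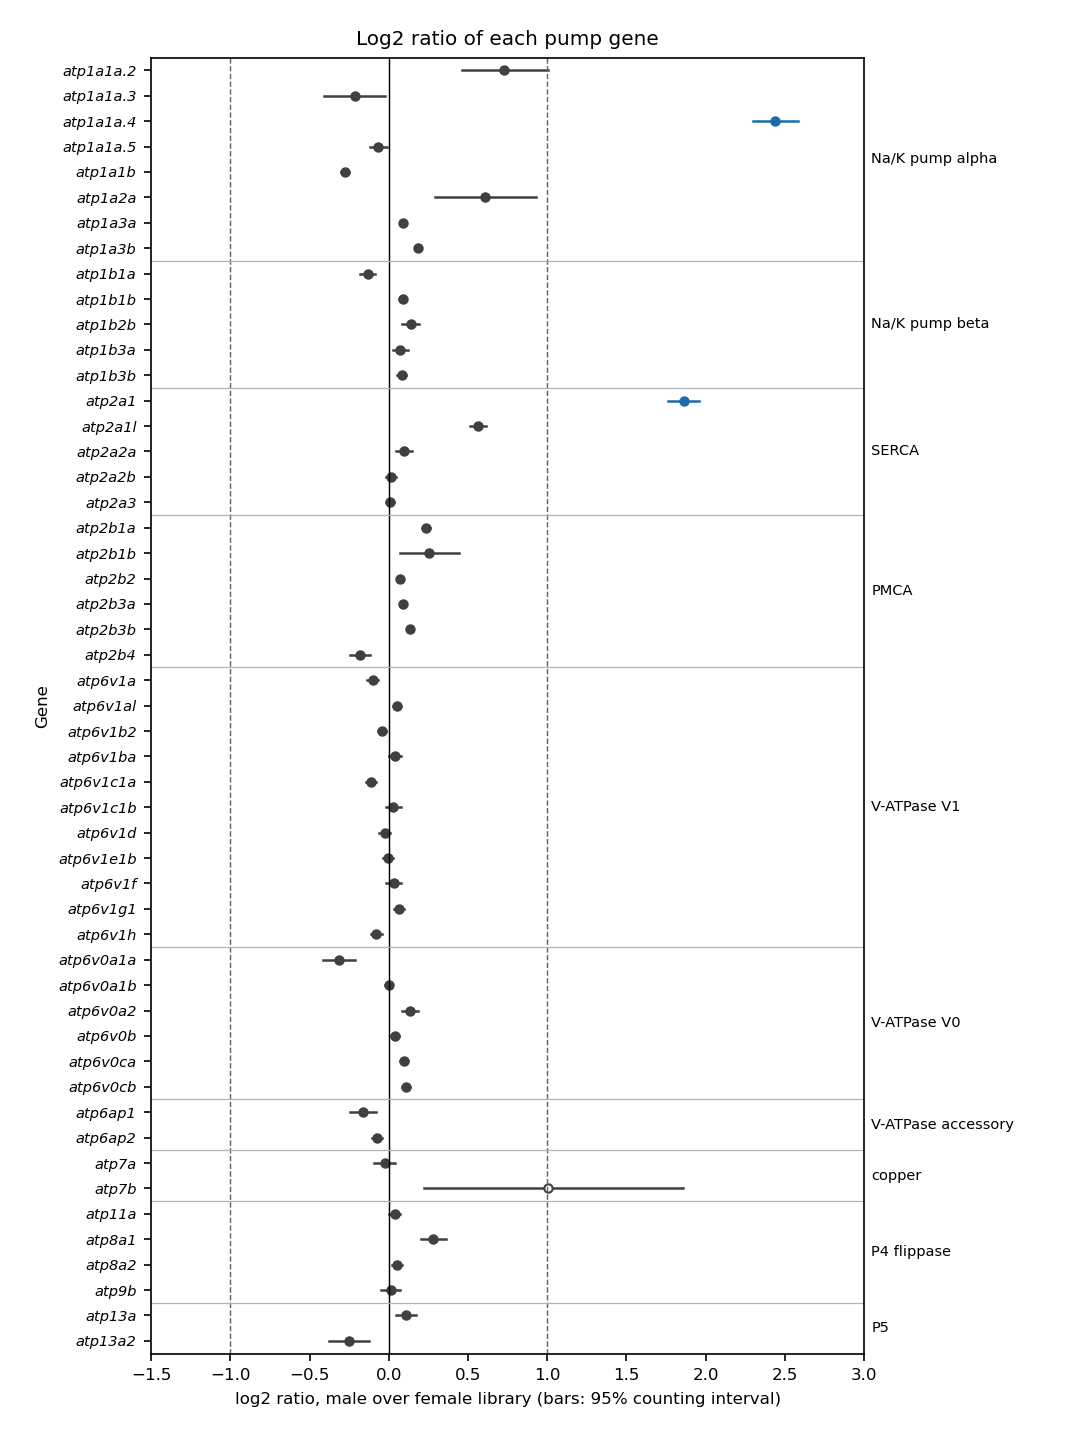
Log2 ratio of male over female library for the same 51 genes (circles) with the 95% counting interval (bars); the open circle is atp7b, below the minimum level, and dashed lines mark a 2-fold difference. Only atp1a1a.4 at 2.44 and atp2a1 at 1.86 are drawn in blue as past the rule of size, and the other measured genes lie between -0.32 and 0.73.

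Among the 9 catalytic alpha subunits of the Na/K pump, all measured, 1 was higher in the male library, none in the female library and 8 in neither. That gene was atp1a1a.4, a member of the alpha1 group, with 2478 reads in the male library against 486 in the female library, or 40.4 CPM (male) against 7.45 CPM (female). It was 5.42-fold higher in the male library (interval 4.92 to 5.99), and its log2 ratio stayed between 2.40 and 2.47 under every other scaling, trend removal and added count. In bulk brain RNA, fewer cells of a type and less RNA per cell cannot be told apart.

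The gene lies on the plus strand of chromosome 1 (Zv9), from 1446580 to 1462945, upstream of its relatives atp1a1a.2, atp1a1a.3 and atp1a1a.5, the last of which ends at 1606881. Starting 99.6 kb from the start of atp1a1a.4, atp1a1a.2 had 295 male and 189 female reads (0.73, interval 0.46 to 1.002), short of a 2-fold difference. The genes after it lay below 0, atp1a1a.3 with 400 male and 494 female reads (-0.22, interval -0.41 to -0.02) and atp1a1a.5 with 5646 male and 6283 female reads (-0.07, interval -0.12 to -0.01). The log2 ratio of atp1a1a.4 exceeded that of atp1a1a.2 by 1.71 (interval 1.41 to 2.01), more than counting error. How reads that match several of these similar copies were counted is not stated in the sources used here, and the value of each copy is uncertain to that extent.

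**Figure D3:**
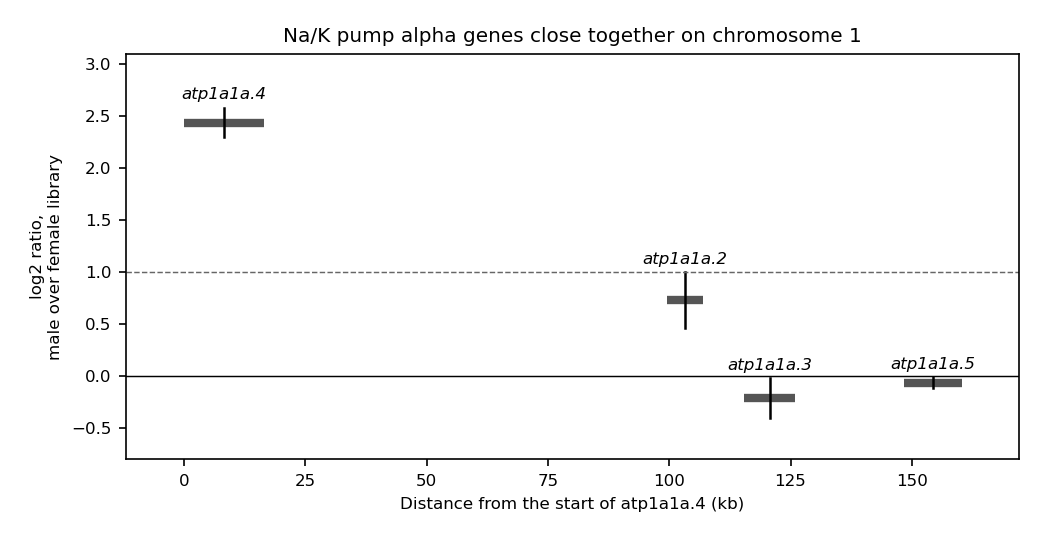
Log2 ratio of male over female library for 4 Na/K pump alpha genes close together on chromosome 1, against distance in kb from the start of atp1a1a.4; horizontal bars span each gene and vertical lines are 95% counting intervals. The first gene, at 2.44, stands above the 2-fold line (dashed), atp1a1a.2 at 0.73 lies under it, and atp1a1a.3 and atp1a1a.5 lie below 0.

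Several alpha1 genes of this group are known from zebrafish skin and gill ionocytes, the cells that exchange ions with the water. Of the 18 ionocyte markers, 17 matched a gene, 9 were measured, 6 lay below the minimum and slc4a4b and clcn2c were listed at 0. The transcription factor gene foxi3b (184 male and 15 female reads) and the anion exchanger gene slc4a1b (200 male and 19 female reads) were higher in the male library, and none was higher in the female library. Their log2 ratios were 3.66 and 3.45, but both reached the minimum of 1 CPM through the male library alone. The level of foxi3b was 3.00 CPM (male) and 0.23 CPM (female), and that of slc4a1b 3.26 CPM (male) and 0.29 CPM (female). Their calls are therefore no independent support for the value of atp1a1a.4. The other 7 measured markers lay between -0.86 (slc9a3.2) and 0.67 (gcm2). Both of these end genes also reached the minimum through 1 library alone. The level of slc9a3.2 was 0.75 CPM (male) and 1.36 CPM (female), and that of gcm2 1.27 CPM (male) and 0.80 CPM (female). The summed level of the list was 517 CPM in the male library against 471 in the female library, most of it from ca2 and slc8a1b, and the median log2 ratio of 0.25 turned negative at a minimum of 5 CPM. Among skin epithelium markers, krt4 was higher in the male library (12376 male against 2816 female reads), while epcam (171 male against 447 female) and agr1, listed as zgc:165571 (59 male against 199 female), were higher in the female library and cdh1 was listed at 0. The agr1 gene reached the minimum through the female library alone (0.96 CPM male, 3.05 CPM female). Short of 2-fold, krt91, listed as zgc:92533, had 4095 male and 7733 female reads (-0.83), and krt5 stood at 0.26. That list summed to 490 CPM in the male library against 353 in the female library, with krt4 alone giving 202 CPM (male) and 43.2 CPM (female). Its median log2 ratio was -0.29, with 3 of 6 measured genes on either side of 0, a sign that turned at a minimum of 5 CPM or with no minimum. The part of these cells in the atp1a1a.4 value was not tested.

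The neuronal alpha3 genes, present in the genome as a pair, were close to level. The gene atp1a3a on chromosome 19 had 73248 reads in the male library against 73271 in the female library (log2 ratio 0.09, interval 0.07 to 0.10). Its partner atp1a3b on chromosome 16 had 50957 male and 47672 female reads (0.18, interval 0.17 to 0.20). Both lay far inside the 2-fold lines. The difference of -0.10 between these ratios (interval -0.12 to -0.07) exceeds counting error, with no replicate check. With the trend of the ratio on gene span removed, the ratios lay closer together, at 0.03 (atp1a3a) and 0.09 (atp1a3b). The second alpha1 locus, atp1a1b on chromosome 9, had 21241 male and 27315 female reads (-0.27, interval -0.30 to -0.25), the lowest ratio of the 9 alpha genes. The alpha2 gene atp1a2a, whose mammalian counterpart serves astrocytes and muscle, had 201 male and 140 female reads (0.61, interval 0.29 to 0.93). Skeletal muscle markers in these libraries, given with the calcium pumps below, went both ways. The part of muscle or glia in the atp1a2a value was not tested. Summed over all 9 alpha genes the libraries held 209604 male and 214077 female reads, a log2 ratio of 0.06 after scaling.

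Beta subunits are glycoproteins that carry the alpha subunit to the membrane. Of 7 beta genes, 5 were measured and none was called, while atp1b2a and atp1b4 were listed at 0 in both libraries. The ratios spanned -0.13 to 0.14 with a median of 0.08. The gene atp1b1b had 34297 male and 34325 female reads (0.09, interval 0.07 to 0.11), and its paralogue atp1b1a had 6650 male and 7755 female (-0.13, interval -0.18 to -0.09). The ratios of these paralogues differed beyond counting error, by -0.22 (interval -0.27 to -0.17). For atp1b3a (7779 male and 7861 female reads) and atp1b3b (18028 male and 18117 female) the ratios were 0.07 and 0.08, with a difference of -0.01 (interval -0.06 to 0.05). The counterpart of the glial beta2 subunit of mammals, atp1b2b, had 5816 male and 5617 female reads (0.14).

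Genes that work beside the Na/K pump, such as the FXYD regulators, the chloride cotransporters and the sodium-calcium exchangers, were not called in either direction among 14 measured of 19 listed. Of the rest, fxyd2 lay below the minimum, fxyd1 (now fxyd3) and slc8a4b were listed at 0, and nkain2 and nkain3 matched no gene. Their ratios spanned -0.14 to 0.33 with a median of 0.10. The FXYD regulator gene fxyd6 had 21960 male and 24450 female reads (-0.07), and the neuronal potassium-chloride cotransporter gene slc12a5b, listed as LOC797331, had 39647 male and 39015 female (0.11). The highest ratio was that of the exchanger gene slc8a3, with 1123 male and 952 female reads (0.33).

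Of the 5 SERCA calcium pump genes, all measured, 1 was higher in the male library, none in the female library and 4 in neither. That gene, atp2a1, encodes the pump of fast skeletal muscle and lies on chromosome 3 from 26880629 to 26890073 on the minus strand (Zv9). It had 3653 reads in the male library against 1069 in the female library, or 59.5 CPM (male) against 16.4 CPM (female). This was 3.63-fold higher in the male library (interval 3.39 to 3.89), with a log2 ratio between 1.82 and 1.90 under every other scaling, trend removal and added count. Its relative atp2a1l on chromosome 12 had 7425 male and 5350 female reads (0.56, interval 0.51 to 0.61), inside the 2-fold line. The ratio of atp2a1 exceeded that of atp2a1l by 1.30 (interval 1.19 to 1.41). The broadly used SERCA2 genes were level, atp2a2a with 6232 male and 6201 female reads (0.10) and atp2a2b with 15198 male and 16018 female (0.01). The SERCA3 gene atp2a3, with 24469 male and 25836 female reads, was at 0.01 as well, and the signs of atp2a2b and atp2a3 turned with library totals as the scale or with either trend taken out.

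Markers of skeletal muscle moved in both directions beside atp2a1. All 20 matched a gene, 17 were measured, tnnt3a (89 male and 6 female reads) lay below the minimum, and tnnt3b and casq1b, listed as zgc:154027, were at 0. In the male library the fast troponin gene tnni2a.1 (1698 male against 585 female reads) and the actin gene acta1b (507 male against 208 female) were higher. So was the muscle calcium channel gene cacna1sa (96 male against 50 female reads), with a log2 ratio of 1.02. It reached the minimum of 1 CPM through the male library alone (1.56 CPM male, 0.77 CPM female). In the female library the myosin gene myhc4 (2074 male against 5292 female reads) and the parvalbumin genes pvalb1 (189 male against 1857 female) and pvalb2 (319 male against 711 female) were higher. The creatine kinase genes of muscle, ckma and ckmb, stood at 0.03 and 0.07. Short of 2-fold, srl had 386 male and 205 female reads (0.9999) and neb had 458 male and 267 female reads (0.87), while casq1a stood at -0.62. Of the 17 measured ratios, 12 lay above 0 and 5 below. The list summed to 703 CPM in the male library against 690 in the female library, with a median log2 ratio of 0.20. Heart markers summed to 10.5 CPM in the male library against 8.35 in the female library, with none of 3 measured genes called, 2 below the minimum and nppa at 0. The part of muscle RNA in the atp2a1 value was not tested.

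**Figure D4:**
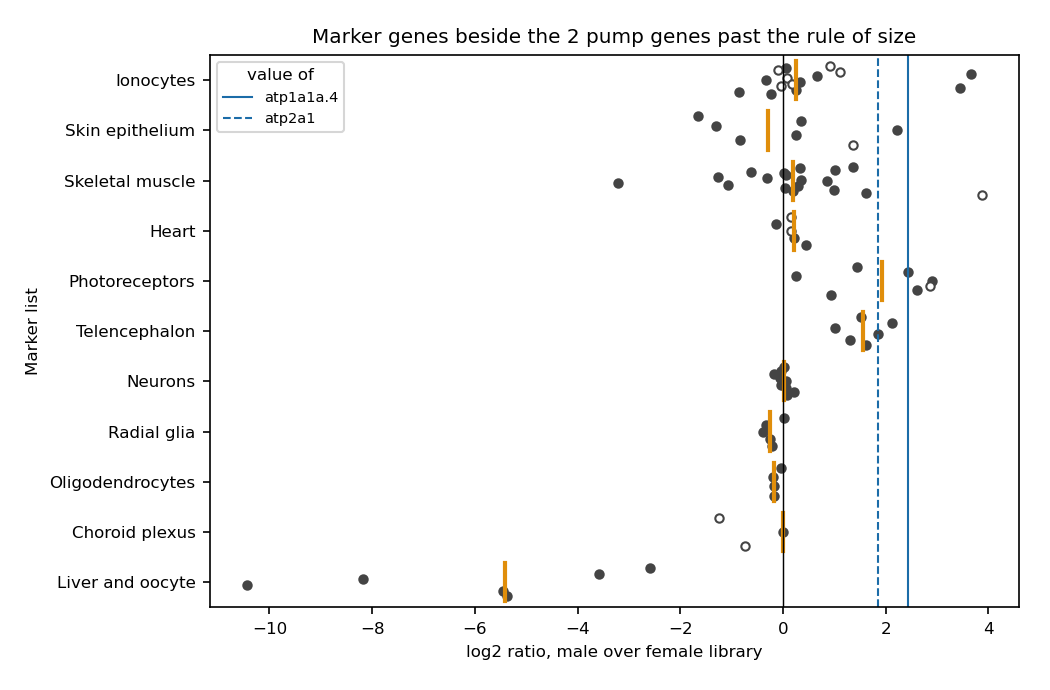
Log2 ratio of male over female library of each marker gene with any reads (filled circles, measured; open circles, below 1 CPM) by list, with the median of the measured genes of each list as an orange bar. The solid and dashed blue lines mark atp1a1a.4 at 2.44 and atp2a1 at 1.86. Ionocyte and skeletal muscle genes lie on both sides of 0. All telencephalic genes lie at 1.02 or above, and all measured photoreceptor genes lie above 0, from 0.26 to 2.90. All liver and oocyte genes and all oligodendrocyte genes lie below 0. The lists were chosen with earlier results of these data known.

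Partners of SERCA in reticulum calcium handling were not called in either direction. Of 22 such genes, 11 were measured, itpr3 lay below the minimum and 10 were listed at 0, among them itpr1a, itpr1, ryr2a and trdn. The small SERCA inhibitors phospholamban (pln1, listed as LOC555548, with 262 male and 284 female reads) and sarcolipin (sln, listed as LOC100332130, with 1317 male and 1363 female reads) had log2 ratios of -0.03 and 0.04. The muscle-type ryanodine receptor gene ryr1b had 2842 male and 2458 female reads (0.30, interval 0.22 to 0.38). The calsequestrin genes, whose products buffer calcium inside the reticulum, were below 0, casq2 at -0.26 and casq1a, listed as zgc:100957, at -0.62. None of the 11 reached 2-fold.

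None of the 6 PMCA genes, which clear calcium from the cell, was called, and all 6 were measured. Their ratios spanned -0.18 to 0.25 with a median of 0.11, and 5 of 6 lay above 0. The genes of the neuronal form PMCA3, atp2b3a (49957 male and 49882 female reads) and atp2b3b (51520 male and 49894 female), had log2 ratios of 0.09 and 0.13. The broadly expressed atp2b1a had 28454 male and 25737 female reads (0.23, interval 0.21 to 0.26), and its paralogue atp2b1b had 506 male and 451 female (0.25, interval 0.07 to 0.44), a difference of -0.02 (interval -0.21 to 0.16). The member below 0 was atp2b4, with 3649 male and 4394 female reads (-0.18, interval -0.24 to -0.12).

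The gene of PMCA2, which serves hair cells and Purkinje cells in mammals, is the 1 pump gene given in more than 1 row. Summed, atp2b2 had 47439 reads in the male library against 48051 in the female library (0.07, interval 0.05 to 0.09). Its long row on the plus strand of chromosome 11 (Zv9, 1147343 to 1203776) had 43171 male and 42932 female reads (0.10). A row of 260 bp on the minus strand (1135413 to 1135672) had 4267 male and 5119 female reads (-0.17, interval -0.23 to -0.12). The rows lie on opposite strands and their ratios have opposite signs, and the sources used here do not say whether counting used strand.

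The V-ATPase genes were close to level. Of 21 genes, 19 were measured, none was called, 9 ratios lay above 0 and 10 below, and the median was -0.00, which turned to 0.01 with the trend on gene span removed. In the V1 part, which hydrolyses ATP, all 11 genes were measured and lay between -0.11 and 0.06. The genes of the catalytic A subunit were atp6v1a (now atp6v1ab), with 11842 male and 13518 female reads (-0.10, interval -0.14 to -0.07), and atp6v1al (now atp6v1aa), with 21527 male and 22068 female (0.05, interval 0.03 to 0.08). They differed by -0.16 (interval -0.20 to -0.11). Beside them in the ring, the B subunit genes atp6v1b2 (21346 male and 23378 female reads) and atp6v1ba (11607 male and 12001 female) stood at -0.04 and 0.04. The C subunit, which links V1 to V0, showed the same kind of split, with atp6v1c1a (12710 male and 14612 female reads) at -0.11 and atp6v1c1b (7137 male and 7440 female) at 0.03, a difference of -0.14 (interval -0.20 to -0.08). Signs of atp6v1al, atp6v1ba and atp6v1c1b turned with the expression trend removed, and those of the last pair also with library totals as the scale. The stalk and regulatory genes lay between atp6v1h at -0.08 (12028 male and 13506 female reads) and atp6v1g1 at 0.06 (13260 male and 13484 female reads, a sign that turned with the expression trend removed), with atp6v1e1b, atp6v1d and atp6v1f between them.

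In the V0 part, through which protons pass, 6 of 8 genes were measured, and atp6v0d1 and atp6v0a1 (now si:ch73-173p19.2) were listed at 0. The proteolipid ring genes atp6v0ca (25311 male and 25129 female reads) and atp6v0cb (25418 male and 25084 female) were alike at 0.10 and 0.11, with a difference of -0.01 (interval -0.04 to 0.03). Among genes of the large a subunit, which steers the pump to its membrane, atp6v0a1b had 32915 male and 35024 female reads (-0.00, interval -0.02 to 0.02), while its paralogue atp6v0a1a had 1373 male and 1817 female (-0.32, interval -0.42 to -0.21). The value of atp6v0a1a was the lowest log2 ratio of the 52 measured pump genes, equal to a level 1.24-fold higher in the female library. The a2 gene atp6v0a2 (now atp6v0a2a), with 6574 male and 6375 female reads, stood at 0.13. The accessory genes atp6ap1 (now atp6ap1b, 2273 male and 2708 female reads) and atp6ap2, the prorenin receptor (13357 male and 14949 female), had ratios of -0.16 and -0.07, both negative under every scaling and trend removal tried.

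Genes of V-ATPase assembly, regulation and vesicle chloride transport were not called either, with 14 of 20 measured and 6 listed at 0. Their median was -0.02, which turned positive with the span trend removed. At the ends stood the a3 subunit gene tcirg1b, listed as zgc:55891, at -0.19 (1362 male and 1652 female reads) and dmxl2, a rabconnectin gene listed as rc3, at 0.25 (16335 male and 14601 female). The other rabconnectin subunit gene, wdr7, was at -0.12 (5923 male and 6864 female reads), so genes of the same complex lay on opposite sides of 0.

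The copper pump gene atp7a, affected in Menkes disease in humans, had 3444 male and 3727 female reads (-0.03, interval -0.09 to 0.04). Its relative atp7b, which in mammals exports copper from liver cells, had 40 male and 21 female reads and was the 1 gene with reads that fell below 1 CPM (1.002, interval 0.22 to 1.85). Without a minimum level it passed the rule, as did 1.9% of all genes with reads on the male side. None of 5 measured copper partners of 7 was called, atox1 and ccs (listed as LOC558347 and zgc:112427) were at 0, and the copper importer gene slc31a1 had 2357 male and 3118 female reads (-0.32, interval -0.39 to -0.24).

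Flippases move phospholipids to the cytosolic face of membranes. Of the 8 P4 flippase genes, 5 were measured, none was called, and atp10a (now atp10b), atp8b1 and atp8b2 were listed at 0. All 5 ratios were positive as scaled, but each except that of atp8a1 turned under at least 1 scaling or trend removal. The gene listed as atp8a1, for which no current symbol was found, had 3013 male and 2635 female reads (0.28, interval 0.21 to 0.36). The gene now named atp8a1 is listed as zgc:154074 and was at 0 in both libraries. The gene atp8a2, a neuronal form in mammals, had 17077 male and 17516 female reads (0.05). The genes atp11a (13378 male and 13865 female reads) and atp9b (4485 male and 4729 female reads) stood at 0.04 and 0.01. Most P4 flippases need a CDC50 chaperone subunit. Of the 4 genes of that family, all measured, tmem30aa, tmem30ab and tmem30c lay between -0.10 and -0.01. The fourth, tmem30b, listed as zgc:91908, was higher in the female library with 46 male and 186 female reads (-1.92, interval -2.43 to -1.45). It reached the minimum of 1 CPM through the female library alone (0.75 CPM male, 2.85 CPM female), and its mean of 1.80 CPM lay under the other minimum of 5 CPM.

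Both P5 genes were measured and neither was called. The gene listed as atp13a, now atp13a1, which works in the endoplasmic reticulum, had 3862 male and 3807 female reads (0.11, interval 0.04 to 0.17). The lysosomal gene atp13a2, affected in a juvenile parkinsonism of humans, had 915 male and 1156 female reads (-0.25, interval -0.38 to -0.12). Their difference of -0.36 (interval -0.50 to -0.22) exceeded counting error.

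The 7 pump genes listed at 0 cannot be read as silent. They include atp6v0d1, a V0 subunit that cells of every kind use in mammals, and 8 of 64 cytoplasmic ribosomal protein genes of the table (12.5%) were likewise listed at 0 in both libraries, as were 38.1% of all 27095 genes. No limit was therefore set on their levels.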

How the data were processed

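Per the labels, RNA of integrity number 8 to 9 was sequenced as single reads of 51 bp from libraries of 3 µg input. The build Zv9, TopHat 1.4.1 and DESeq are named, without roles, per the submitters' processing notes. Counting program, annotation and use of strand are not stated in the sources used here. The deposited raw columns are estimated counts, since whole values (within 0.001) made up 1.56% (male) and 1.92% (female) of those above 0. The other deposited columns are log2 of those counts over 0.971 (male) and 1.03 (female), with negative values set to 0.

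Rows were summed by Entrez ID (296 genes with 624 rows), rounded and scaled by median-of-ratios size factors, 0.970 (male) and 1.03 (female). Ratios had 0.5 added to each count, and Clopper-Pearson intervals at 95% treat reads as independent, although amplified reads carry no molecular identifiers. Differences between 15 pairs of related genes have unadjusted normal-approximation intervals. The calculation was tested on simulated counts with counting noise only, planted folds above 2 and no minimum level. That simulation did not cover folds near the 2-fold limit, the minimum level or the spread between fish. Current symbols came from RefSeq (GRCz12tu) for 59 of 60 pump genes, and coordinates from the deposited table. Members, marker lists and partner lists were chosen with earlier results of these data known. The genes named were both genes past the rule, atp1a3a, the 3 with most reads and the 2 with the largest measured ratios per class, and any below the minimum. Some members are counted but not reported singly here. The other members named were chosen after their values were seen. Groups came from the sex in the labels, and replicates were 1 per sex, so no p-value was computed. TMM factors came from edgeR 4.0.16 in R 4.3.3, and lowess fits from statsmodels 0.14.6. Other steps used scipy 1.17.1, pandas 2.3.3, numpy 2.4.6 and matplotlib 3.10.9 under Python 3.11.15.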

Additional observations from a re-analysis of the deposited data

How the results depend on the processing

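No paired analysis was possible because each sex has 1 library and the labels give no replicate numbers. The 10 alternatives left atp1a1a.4 and atp2a1 called in the male library and no pump gene in the female library. At a fold of 1.5, 4 pump genes were higher in the male library, with atp1a1a.2 and atp1a2a added, against 2.8% of all genes. Without a minimum level atp7b was added. Calls over all genes were 156 male-side and 399 female-side as reported, but 59 male-side and 112 female-side at a minimum of 5 CPM, 319 male-side and 656 female-side with no minimum, and 413 male-side and 899 female-side at a fold of 1.5, since fewer or more genes could pass. The median of the pump genes (0.05) was 0.0044 with library totals and -0.0186 with the expression trend removed. Library totals as the scale move every ratio alike, and the median over all genes moved by -0.0420. With the expression trend removed, the median over all genes moved by -0.0008. The cause of that trend was not tested. Values for the 40 named genes were compared under the alternatives of scaling, trend, added count and unsummed rows, not those of fold or minimum level. Of these 280 values, 215 stayed inside the main counting interval, 65 left it and 0 turned a call. The genes added at a fold of 1.5 or without a minimum level lie outside that count. Leaving out a replicate was not possible. Depth limits atp7b and atp1a2a most, and with 1 library per sex no value has a check on the spread between fish.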

Other observations

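Beyond the genes chosen by symbol, 15 genes of the table have a current RefSeq symbol of the same kind but stand there under provisional names. Of these, 10 were measured, none was called, 1 (now atp10a) lay below the minimum and 4 were listed at 0, among them zgc:154074 (now atp8a1). Their log2 ratios of male over female spanned -0.40 to 0.39 with a median of 0.04. They fill gaps in the pump classes. The Golgi calcium and manganese pump gene atp2c1, listed as LOC559574, had 4018 male and 4148 female reads (0.04, interval -0.02 to 0.11). The small V0 subunit gene atp6v0e1, listed as zgc:103433, had 361 male and 508 female reads (-0.40, interval -0.60 to -0.21). The accessory gene atp6ap1a, listed as si:ch211-117k14.5, had 28583 male and 29433 female reads (0.05, interval 0.02 to 0.07), whereas the gene listed as atp6ap1 had 2273 male and 2708 female reads. The flippase gene atp8b5a, listed as LOC100330945, had 1931 male and 1567 female reads (0.39, interval 0.29 to 0.49), and the P5 gene atp13a3, listed as LOC572029, had 1352 male and 1185 female reads (0.28, interval 0.17 to 0.39).

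Other marker lists stood as follows. The 5 radial glia markers had a median log2 ratio of -0.24, none called, and a summed level of 1986 CPM in the male library against 2247 in the female library. The 4 oligodendrocyte markers had a median of -0.17, none called, with 1441 CPM in the male library against 1571 in the female library. Of 5 choroid plexus markers, 3 matched and otx2 (5865 male and 6232 female reads) was measured at 0.00, a sign that turned under other scalings, while ttr had 15 male and 27 female reads and kcnj13 had 32 male and 81 female reads.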
